A study of Mus musculus with 7 samples.

Results

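Endothelial cells were described in 7 mouse mammary tumors profiled by Drop-seq, in which droplets carry single cells with barcoded beads and each captured mRNA molecule is counted once through a unique molecular identifier (UMI). Among barcodes with 200 to 6000 genes, mitochondrial genes left out, a cell was taken as endothelial on 4 conditions. It held at least 2 UMIs of at least 2 different genes among Pecam1, Cdh5, Flt1, Ramp2, Aqp1 and Kdr. It held at most 2 UMIs of Col1a1, Col3a1 and Dcn together, none of Krt14 or 1500015O10Rik, and at most 1 of Epcam, Krt8 and Krt18 together. The members were thus chosen by the UMIs of these genes, and the rule selected 77 of 15047 cells, or 0.512% (exact 95% interval 0.404 to 0.639, which covers counting error only).

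All 7 tumors came from control mice, labelled MMTV-PyMT; HK2 f/f and wild type, in which the MMTV promoter drives the polyoma middle T oncogene (PYMT) in mammary epithelium. By the study's methods these controls carry the floxed alleles without a Cre recombinase and were also given tamoxifen, and the tumors were digested in collagenase. The labels give a time of 3 months after a palpable tumor, whereas the methods give a size endpoint. Replicates 1 to 4 have CB in their titles and replicates 5, 7 and 8 have WT, which the labels do not explain, and each replicate is called here the mouse of that number. Tumors with HK2 deletion were not analysed here.

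Endothelial cells line blood and lymphatic vessels. They are held together by VE-cadherin (Cdh5) and PECAM-1, and they grow in response to VEGF through the receptors VEGFR1 (Flt1) and VEGFR2 (Kdr). Along the vascular tree they take on arterial, capillary and venous programs. Capillary cells move lipid and fluid, venules capture leukocytes through selectins, and tip cells lead new sprouts under the control of Notch ligands.

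The endothelial cells were few and uneven between tumors. Mice 1, 2, 3, 4, 5, 7 and 8 gave 3, 5, 1, 28, 16, 4 and 20 of them. As a share of kept cells these were 0.139, 0.252, 0.0799, 0.586, 1.03, 0.182 and 1.77%, with a mean of 0.577% ± 0.622 (SD, n = 7) and a median of 0.252%. The interval of mouse 8 (1.08 to 2.71%) lay above those of mice 1, 2, 3, 4 and 7, and overlapped that of mouse 5 (0.591 to 1.67%). Set against fibroblasts the order changed, with 25.4 endothelial cells per 100 fibroblasts in mouse 5, 9.27 in mouse 4 and 4.89 in mouse 8, where fibroblasts made up 36.1% of the cells. The mean share was 0.264% in the 4 CB tumors and 0.993% in the 3 WT tumors, and WT mouse 7 lay within the range of the CB tumors. Such shares depend on how many cells of each kind survived digestion and capture as well as on the tissue, and these cannot be told apart.

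**Figure D1:**
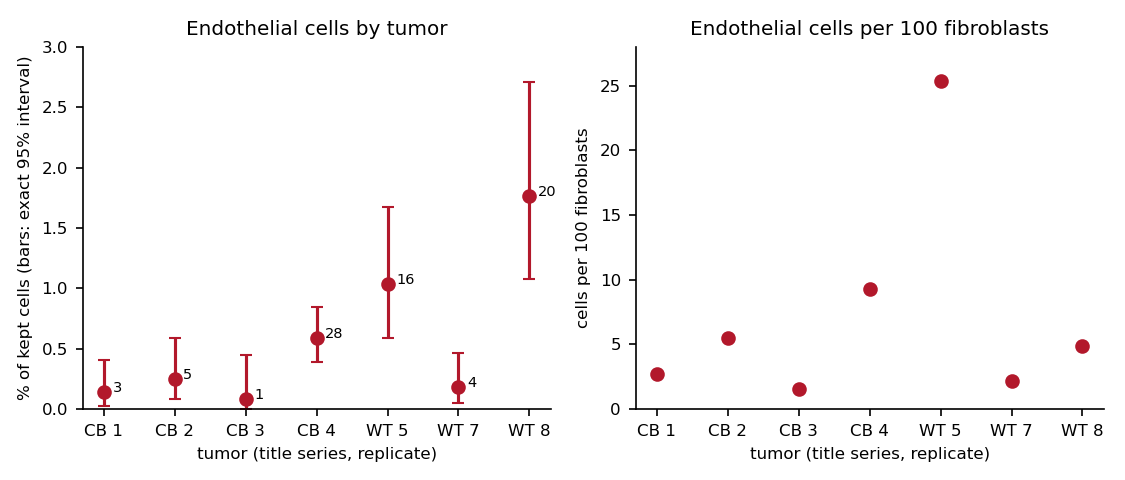
Left, endothelial cells as a percentage of kept cells in each tumor (points, with the number of endothelial cells beside them, and bars for the exact 95% interval). Right, endothelial cells per 100 fibroblasts in the same tumors. Mouse 8 has the highest share of kept cells (1.77%) and mouse 5 the highest ratio to fibroblasts (25.4).

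An endothelial cell held a median of 631 UMIs (246 to 7543) and 452 genes, against 819.5 UMIs in 1228 fibroblasts (at least 5 UMIs of Col1a1, Col1a2, Col3a1 and Dcn together), 579 in 3015 immune cells and 1034.5 in 5422 epithelial cells. The sums over endothelial cells were 20082, 15556 and 25032 UMIs in mice 4, 5 and 8 and 649 to 4623 in the other 4. Mice 4, 5 and 8 were therefore the only ones with at least 10 endothelial cells, and the tests below rest on their 64 cells (n = 3 mice). Mouse 8 held the deepest cell, whose 7543 UMIs were 30.1% of the endothelial UMIs of that mouse. The next deepest cell had 3329. No endothelial barcode occurred in another library.

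The 6 genes that chose the cells were not tested. Flt1 had a UMI in 55 of the 77 cells, Pecam1 in 51, Aqp1 in 50, Kdr in 41, Cdh5 in 37 and Ramp2 in 29. Exons of Ramp2 overlap those of Vps25 on the same strand, and reads of the overlap may not be told apart. A cell held 2 to 40 UMIs of the 6 genes together, with a median of 5, and 57 cells held at least 3 different genes of the 6. The 9 cells at the minimum of 2 UMIs were compared with cells outside the limit by 16 junction and surface genes that the rule did not use. Their summed level was 6911 UMIs per 1000000 UMIs of the class (CPM) in these 9 cells and 6442 CPM in the other 68. It was 2975 CPM in 17 cells with enough UMIs but of only 1 gene, and 1014 CPM in 112 cells with a single UMI of the 6. In 7 cells left out for collagen it was 2481 CPM, and in 2 left out for epithelial genes 1984 CPM.

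Immune, epithelial and fibroblast markers were lower in the chosen cells than in their own classes, in part by the rule. Krt14 and 1500015O10Rik stood at 0 and Epcam, Krt8 and Krt18 gave 6, 2 and 3 UMIs in all 77 cells. Of 13 immune markers 9 had a UMI and these gave 26 UMIs in all, with a summed level of 64.3 to 647 CPM in mice 4, 5 and 8, against 12959 to 28787 CPM in immune cells of the 7 mice. Cd3e, Cd3g, Cd79a and Csf1r were at 0, and Ptprc, the pan-leukocyte phosphatase, gave 1 UMI. A UMI of one of the 9 immune genes that define the immune class occurred in 13 of the 77 cells. Of 18 fibroblast matrix genes 12 had a UMI, with a summed level of 498 to 771 CPM against 7726 to 29661 CPM in fibroblasts. Blood genes, mostly globins, ran from 0 to 14981 CPM in endothelial cells of mice 4, 5 and 8 and from 73.9 to 8235 CPM in fibroblasts of the 7 mice. Mural genes are given with Rgs5 below. Conversely, 133 fibroblasts (10.8%) held a UMI of the 6 selecting genes and 216 (17.6%) held more epithelial UMIs than the endothelial rule allowed. No doublet caller was applied, and the part of mixed barcodes or free RNA in the results was not tested.

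The first question was which genes set the endothelial cells apart from the fibroblasts of the same tumors, the other main stromal class. The tested table held 1536 genes, from which the genes of the rules had been removed. A gene that fibroblasts hardly express could pass the filter on low counts only where its endothelial sums were high. The counts of higher genes among the tested members of each list below are thus partly set by the filter. So are the calls and adjusted p-values of single genes that are rare in fibroblasts, and both are given as a description. Of the 1536 genes tested, 140 were higher in endothelial cells (9.11%) and 202 were lower (13.2%). The test was edgeR's quasi-likelihood test on UMI sums with the mouse as a block, at a Benjamini-Hochberg adjusted p under 0.05. Over all genes tested the median log2 fold change was -0.17. Against all other kept cells of the same mice, 6362 genes were tested, 241 were higher (3.79%) and 436 lower (6.85%), with a median of -0.68. There too a gene rare in the other cells could pass the filter only through its endothelial UMIs. The list counts of higher genes and the calls of such rare genes there are thus partly set by the filter and given as a description. With DESeq2 in place of edgeR the split there was 221 higher and 150 lower. Both comparisons use the same endothelial sums, so they are not independent of each other. The calls against fibroblasts rested strongly on mouse 8. Without it 74 genes were called, 40 higher and 34 lower, of which 63 were among the 342 called with all 3 mice. Among the 67 named and called genes, 57 still passed the filter and 22 were still called without mouse 8. The 22 were Tmem252, Myct1, Esam, Emcn, Egfl7, Adgrf5, Eng, Ptprb, Fli1, Igfbp3, Plvap and Ctla2a, which were higher, and Apod, Lum, Cilp, Cxcl14, Serpinf1, Col8a1, Ccdc80, Bgn, Fstl1 and Postn, which were lower. The other 35 kept their direction, and those described below have their value without it beside them. Sele, Mmrn2, Tie1, Cd300lg, C130074G19Rik, Gimap5, Cd36, Rasip1, Efnb2 and PYMT were then too low to test. Leaving out mouse 4 or mouse 5 kept 53 of 61 and 54 of 64. DESeq2 kept 53 of the 67 and the fit without the replicate block 55 of 67.

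The mice with fewer than 10 endothelial cells took no part in the fit. Their 13 endothelial cells (11045 UMIs) and 454 fibroblasts (674842 UMIs) were summed over 4 mice. Of the 140 genes called higher, 132 (94.3%) also had a higher level in endothelial cells of these mice, and of the 202 called lower, 193 (95.5%) had a lower level. Only 79 of the 202 had an endothelial UMI in these mice, so the rest count as lower from a sum of few UMIs. Among the 1194 genes not called, 574 (48.1%) were higher. These counts are a description with no test.

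The genes that rose most over fibroblasts are given first. Tmem252, a membrane protein whose function is little described, reached 896, 257 and 639 CPM in endothelial cells of mice 4, 5 and 8 and had no UMI in their fibroblasts. This is at least 203-fold higher, taking 3 UMIs over the 3 fibroblast sums as the limit that a count of 0 allows (adjusted p = 2.45e-06). Sele, the E-selectin that slows leukocytes on inflamed endothelium, stood at 199, 321 and 839 CPM, again with none in fibroblasts and at least 160-fold higher. Myct1, a membrane protein of endothelial cells, measured 498, 643 and 1039 CPM against 0, 0 and 3 CPM, with a log2 fold change of 8.43 ± 0.68 (adjusted p = 7.74e-07). Here and below, the value after ± is the size of the log2 fold change divided by the square root of the test's F statistic. It is not a direct standard error and can understate the counting error where a group holds few UMIs. For all 3 genes the lowest endothelial sum lay above the highest fibroblast sum, which the filter on low counts fixes for genes so rare in fibroblasts.

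Mmrn2, an extracellular matrix protein of the vessel wall, gave 349, 386 and 160 CPM in endothelial cells and none in fibroblasts, at least 90.9-fold higher. Tie1, an orphan receptor that works with the angiopoietin receptor, gave 349, 129 and 240 CPM, and Cd300lg, a glycoprotein of capillary and high endothelial cells, 299, 321 and 160 CPM. Neither had a UMI in the fibroblasts of these mice, and each was at least 80.2-fold higher. Against all other cells Tie1 had a log2 fold change of 8.25 (adjusted p = 2.62e-23). In the 4 mice outside the fit, Cd300lg gave 5 UMIs in 13 endothelial cells and none in 454 fibroblasts.

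The promoters of 3 of these 15 leading genes, those with the most endothelial UMIs with a sequence on hand, are shown as examples of the genes that were higher than in fibroblasts in all 3 mice. They were taken from RefSeq (GRCm38.p6) and run from 250 bases before to 50 after the start, 5′ to 3′ on the gene's strand. Capitals mark GGAAGT, a core sequence bound by ETS-family factors, searched on both strands (also as ACTTCC).
Selp (chr1:164115014-164115313, plus strand): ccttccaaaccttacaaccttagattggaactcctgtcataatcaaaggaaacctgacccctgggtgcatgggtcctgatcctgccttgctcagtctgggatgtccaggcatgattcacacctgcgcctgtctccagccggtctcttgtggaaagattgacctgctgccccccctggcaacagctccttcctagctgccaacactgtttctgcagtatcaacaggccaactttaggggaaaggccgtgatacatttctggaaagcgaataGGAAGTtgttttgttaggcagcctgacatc
Gimap6 (chr6:48708195-48708494, minus strand): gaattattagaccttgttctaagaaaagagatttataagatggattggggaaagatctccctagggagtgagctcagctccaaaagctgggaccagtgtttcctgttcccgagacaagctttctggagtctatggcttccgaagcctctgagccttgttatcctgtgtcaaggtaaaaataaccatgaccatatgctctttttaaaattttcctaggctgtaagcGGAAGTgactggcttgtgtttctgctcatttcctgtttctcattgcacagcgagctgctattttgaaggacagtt
Emcn (chr3:137340828-137341127, plus strand): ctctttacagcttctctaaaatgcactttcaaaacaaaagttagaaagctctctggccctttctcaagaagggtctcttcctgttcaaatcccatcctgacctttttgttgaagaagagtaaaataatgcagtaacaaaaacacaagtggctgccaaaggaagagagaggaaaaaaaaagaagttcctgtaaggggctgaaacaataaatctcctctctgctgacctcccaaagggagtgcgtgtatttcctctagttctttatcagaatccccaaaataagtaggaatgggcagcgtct
The Selp and Gimap6 windows each held 1 match and the Emcn window none. The sequence was found in 28 of 108 matched genes called higher (25.9%), in 28 of 143 called lower (19.6%) and in 289 of 928 not called (31.1%), with 24.1% among all 27025 promoters of the table, 1 per gene. Of the 1536 genes tested, 1179 matched a promoter by symbol. A match is a description of the letters and not of binding.

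Junction and surface proteins come first. Of 16 listed genes 8 passed the filter on low counts in the comparison with fibroblasts and were called higher, most of them with fibroblast sums of few UMIs, so that they could enter the test only through high endothelial sums. In the comparison with all other cells, under the same limit of the filter, 13 were tested, 12 were higher and none lower. Esam, an adhesion molecule of endothelial tight junctions, stood at 847, 836 and 679 CPM in endothelial cells against 0, 30 and 0 CPM in fibroblasts (log2 fold change 6.92 ± 0.74, adjusted p = 5.29e-06). Emcn, the sialomucin endomucin of capillaries and veins (ENSMUSG00000054690.17, chr3:137341067-137432185 in GENCODE on GRCm38), measured 996, 1350 and 719 CPM against 4, 30 and 3 CPM. Its log2 fold change was 6.53 ± 0.53 (adjusted p = 7.74e-07). The endothelial sums of both genes lay close together in the 3 mice. They also lay above every fibroblast sum, which the filter on low counts fixes for genes this low in fibroblasts.

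Egfl7, a secreted factor of endothelial cells, gave 996, 771 and 599 CPM against 7, 30 and 3 CPM (log2 fold change 6.10 ± 0.57). Its exons overlap Mir126a and, on the other strand, Agpat2, and reads of overlapping genes may not be told apart. Cd34, a sialomucin that stromal progenitors also carry, showed 1195, 707 and 320 CPM against 145, 262 and 242 CPM. Its sums did not overlap, but the difference was smaller (log2 1.45 ± 0.48, adjusted p = 0.0394) and its call was lost when fibroblasts over the epithelial limit were left out (log2 0.80) or the deepest endothelial cell was (log2 1.40). It was also lost without mouse 4 (log2 0.54), mouse 5 (log2 1.36) or mouse 8 (log2 2.10), with DESeq2 (adjusted p = 0.182) and without the replicate block (adjusted p = 0.0874), among other settings. Claudin-5 (Cldn5) gave only 8 UMIs in the 77 cells and was not tested, and Ocln, the occludin of tight junctions, gave none.

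Cell by cell, Emcn, Egfl7 and Plvap were found in few cells of other classes. Emcn had a UMI in 35 of 77 endothelial cells (45.5%) and in none of 3015 immune cells, which allows a share of up to 0.0995% of cells with a UMI and says nothing of how many express the gene. The median depths were 631 and 579 UMIs. With every cell thinned to 300 UMIs, Emcn was found in 29.7% of 74 endothelial cells, Egfl7 in 31.1% and Plvap in 35.1%. Egfl7 and Plvap were each in at most 0.106% of 2837 thinned immune cells. Plvap was in 2.44% of fibroblasts before and 0.874% after thinning.

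**Figure D2:**
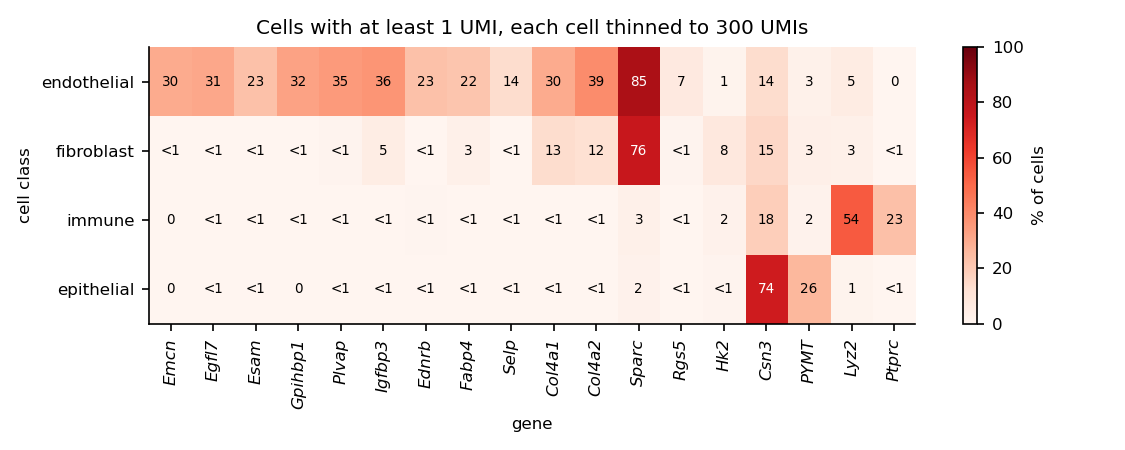
Percentage of cells with at least 1 UMI of each gene (columns) in 4 cell classes (rows), after thinning each cell to 300 UMIs. The vessel genes are found in endothelial cells and in few cells of the other classes, whereas Sparc is in 85.1% of endothelial cells and 76.1% of fibroblasts, and Csn3 is spread over all classes.

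Receptors of angiogenic and vascular signals follow. Of 19 listed receptors 9 were tested against fibroblasts, 8 were higher and 1 was lower, several of the 8 having passed the filter through their endothelial sums, and against all other cells 11 of 15 were higher and none lower. Eng, the endothelial co-receptor of BMP9, stood at 797, 771 and 479 CPM against 26, 22 and 21 CPM (log2 4.50 ± 0.47, adjusted p = 4.34e-06). Ptprb, the VE-PTP phosphatase that restrains Tie2, measured 498, 836 and 360 CPM against 18, 30 and 10 CPM (log2 4.56 ± 0.51). Adgrf5, an adhesion G protein-coupled receptor, gave 448, 836 and 999 CPM against 7, 67 and 10 CPM (log2 4.97 ± 0.55). None of these 3 genes had overlapping groups, which the filter on low counts fixes for genes this low in fibroblasts.

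Nrp1, the VEGF and semaphorin co-receptor, was high in fibroblasts too, at 136, 240 and 153 CPM, against 548, 1029 and 360 CPM in endothelial cells (log2 1.51 ± 0.40, adjusted p = 0.0108). Tgfbr2, the type II receptor of TGF-beta, moved the other way, with 2, 0 and 0 UMIs in endothelial cells against 147, 315 and 338 CPM in fibroblasts (log2 -3.23 ± 0.87, adjusted p = 0.012). Its pooled level was 0.134 times that of fibroblasts, with a 95% counting interval of 0.0162 to 0.49. Compared with all other cells, Tgfbr2 was not called (log2 -1.96, adjusted p = 0.257). Tek, the Tie2 receptor, gave 2 UMIs in each of the 3 mice, too few for the comparison with fibroblasts, and was higher than in all other cells (log2 4.91 ± 0.85, adjusted p = 8.38e-06), though too low to test once any mouse was left out. Without mouse 8 the calls of Nrp1 (log2 1.82) and Tgfbr2 (log2 -2.15) were lost, and without mouse 5 that of Nrp1 (log2 1.11). Neither was called with DESeq2 (adjusted p = 0.0582 and 0.0624), nor was Nrp1 with no filter (log2 0.91) or at least 500 genes per cell (log2 1.43).

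Among 19 transcription factors of endothelial identity, 7 were tested against fibroblasts, 4 were higher and 1 lower. The 4 were Fli1, Ets1, Mef2c and Epas1. Against all other cells 4 of 10 were higher (Fli1, Ets1, Sox7 and Epas1) and none lower, and Mef2c was not called (log2 1.83, adjusted p = 0.053). Fli1, an ETS factor, gave 448, 193 and 200 CPM against 9, 15 and 8 CPM (log2 4.55 ± 0.65, adjusted p = 6.64e-05). Ets1, the founding ETS factor, gave 349, 257 and 1358 CPM against 33, 52 and 130 CPM (log2 2.89 ± 0.43). Epas1, the hypoxia-inducible factor HIF-2 alpha, measured 498, 321 and 160 CPM against 22, 45 and 42 CPM (log2 2.89 ± 0.61). Mef2c gave 398, 321 and 80.0 CPM against 37, 127 and 39 CPM, and the lowest endothelial value lay below the highest of fibroblasts (log2 1.81 ± 0.61, adjusted p = 0.0443). Without mouse 8 the calls of Ets1 (log2 2.70), Epas1 (log2 3.57) and Mef2c (log2 2.17) were lost. Epas1 (log2 1.95) and Mef2c (log2 0.87) also lost theirs without mouse 4, and Mef2c without mouse 5 (log2 2.0), with DESeq2 (log2 1.74) and without the replicate block (log2 1.80), among other settings.

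Klf4, a flow-responsive factor that stromal cells also express, was lower, at 448, 450 and 360 CPM against 741, 1296 and 889 CPM (log2 -1.46 ± 0.35, adjusted p = 0.00502), a call lost without mouse 8 (log2 -1.34) and with DESeq2 (log2 -1.47). Klf4 was not called against all other cells (log2 -0.89, adjusted p = 0.153). Its relative Klf2 stood at 1195, 643 and 280 CPM against 394, 404 and 140 CPM and did not pass (log2 0.86 ± 0.39, adjusted p = 0.141). Sox7, an endothelial SOX factor, had 4, 3 and 3 UMIs in endothelial cells and none in fibroblasts. It was too low for that fit but higher than in all other cells (log2 7.10 ± 0.79, adjusted p = 7.22e-14), and too low to test with any mouse left out. Erg, the ETS factor most used as an endothelial marker, gave 18 UMIs in the 77 cells.

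**Figure D3:**
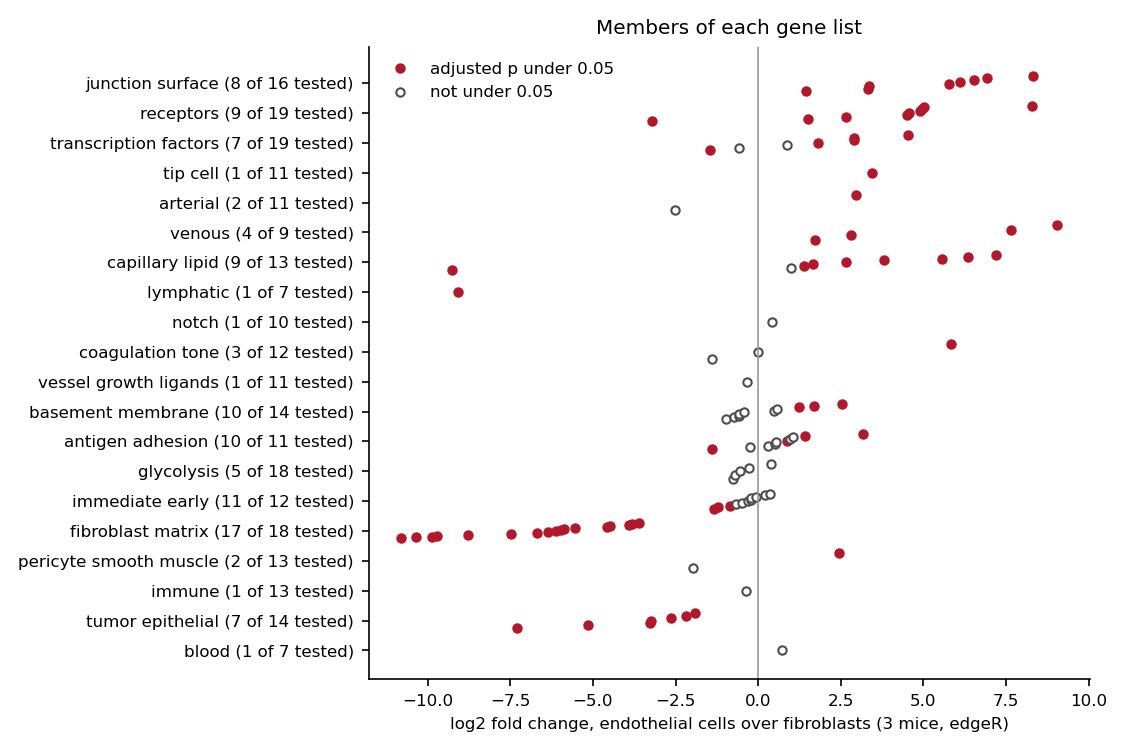
Log2 fold change of endothelial cells over fibroblasts (edgeR, 3 mice) for the tested members of each gene list, with filled points where the adjusted p was under 0.05. Junction and surface genes lie to the right of 0 and fibroblast matrix genes to the left. The 5 glycolysis genes tested have a median of -0.55 and no filled point.

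Most of the capillary and lipid-handling genes tested were higher. Of 13 listed, 9 were tested against fibroblasts, 7 were higher and 1 lower. Relative to all other cells, 9 of 12 were higher and 2 lower, Lpl and Fabp5. Fabp5 gave 1 UMI in the 77 cells, and Car4, also on the list, gave none. Gpihbp1 carries lipoprotein lipase across capillary endothelium (ENSMUSG00000022579.10, chr15:75596628-75599481). It reached 5029 CPM in mouse 4, 771 in mouse 5 and 519 in mouse 8, against 0, 60 and 0 CPM in fibroblasts (log2 7.19 ± 0.98, adjusted p = 4.66e-05). Lpl, the lipase that Gpihbp1 binds, had no UMI in any of the 77 endothelial cells and 326, 644 and 411 CPM in fibroblasts, so that it was at least 8.15-fold lower. Without mouse 8 neither was called, at log2 7.21 for Gpihbp1 and -9.19 for Lpl. In the 4 mice outside the fit, Gpihbp1 gave 18 UMIs in endothelial cells and none in fibroblasts, and Lpl none and 282.

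Plvap, the diaphragm protein of fenestrae and caveolae, stood at 1992, 1929 and 919 CPM against 20, 67 and 13 CPM (log2 5.57 ± 0.46, adjusted p = 8.26e-07). Fabp4, a fatty acid carrier of capillaries and adipocytes, measured 249, 643 and 4994 CPM against 13, 75 and 216 CPM (log2 3.80 ± 0.41). Cd36, the fatty acid receptor, measured 149, 193 and 1159 CPM against 4, 7 and 3 CPM (log2 6.36 ± 0.76). Both were highest in mouse 8, whereas Gpihbp1 was highest in mouse 4. Of the 174 Fabp4 UMIs 58 came from 1 cell, and of the 144 Gpihbp1 UMIs 48 did. Cavin3, a coat protein of caveolae, gave 697, 1221 and 479 CPM against 209, 232 and 263 CPM (log2 1.38 ± 0.40, adjusted p = 0.0186), and its call was lost without mouse 4 (log2 1.26), mouse 5 (log2 0.79) or mouse 8 (log2 1.83), with DESeq2 (log2 1.38), with at least 500 genes per cell (log2 1.29), with no filter (log2 0.78) and with fibroblasts over the epithelial limit left out (log2 0.91). That of Fabp4 was lost without mouse 8 (log2 3.28), where Cd36 was too low to test.

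Of 9 venous genes 4 were tested and called higher than in fibroblasts, of which Sele and Selp passed the filter through their endothelial sums. Relative to all other cells 4 of 8 were higher (Vwf, Selp, Sele and Icam1) and none lower, and Lrg1 was not called (log2 0.83, adjusted p = 0.200). Selp, the P-selectin stored in endothelial granules (ENSMUSG00000026580.16, chr1:164115264-164150026), stood at 299, 643 and 5034 CPM against 0, 22 and 8 CPM (log2 7.65 ± 0.71, adjusted p = 2.3e-06). The value of mouse 8 rested on its deepest cell, which held 98 of the 146 Selp UMIs of all endothelial cells, 24 of the 36 UMIs of Ackr1 (the venular chemokine receptor) and 8 of the 33 of Sele. Without that cell the call of Selp was not lost, and without mouse 8 its log2 fold change was 5.66 and no longer passed. Exons of 2 predicted genes lie on the opposite strand of Selp. Icam1, the leukocyte adhesion receptor, gave 349, 964 and 1159 CPM against 130, 180 and 273 CPM (log2 1.72 ± 0.39, adjusted p = 0.00331). Lrg1, a secreted modulator of TGF-beta signals, gave 548, 707 and 559 CPM against 62, 157 and 34 CPM (log2 2.81 ± 0.44). Neither gene overlapped between the groups, and without mouse 8 neither was called, at log2 1.73 and 2.42. Icam1 was not called without mouse 5 (log2 1.27) or with no filter (log2 1.12) either.

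Venular and capillary transcripts were counted in the same cells. At least 1 UMI of Gpihbp1, Cd36 or Fabp4 and none of Selp, Ackr1 or Sele was found in 36 cells, the reverse in 5, both in 17 and neither in 19. The cells with both had a median of 990 UMIs, against 657 for the capillary transcripts alone, 618 for the venular ones alone and 508 for neither, so the groups also differed in depth. In mouse 4, 19 of 28 cells held capillary transcripts alone and 1 held both, whereas in mouse 8, 7 of 20 held capillary transcripts alone and 9 held both. Taken singly, Selp met Gpihbp1 in 8 cells, with 10 cells holding Selp alone and 31 Gpihbp1 alone. Selp met Fabp4 in 11 cells, with 7 and 10 holding one alone, and Sele met Selp in 8 of the 11 cells that held Sele. Gpihbp1 met Fabp4 in 9 cells, with 30 and 12 holding one alone. Fabp4 was thus counted as capillary by its list and not by these pairs. These genes were paired after their values had been seen, and a missing UMI at this depth does not show that a cell lacks the transcript.

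**Figure D4:**
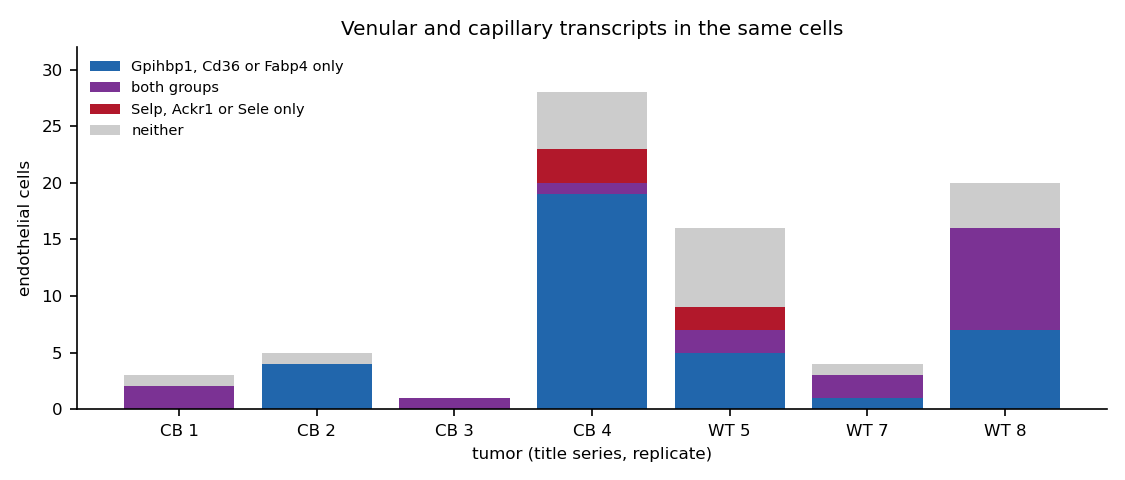
Number of endothelial cells in each tumor (bars) by whether they held a UMI of Gpihbp1, Cd36 or Fabp4 only, of Selp, Ackr1 or Sele only, of both groups or of neither. Mouse 4 has 19 cells with capillary transcripts only, and mouse 8 has 9 cells with both.

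Few genes of sprouting, arterial and lymphatic endothelium could be tested against fibroblasts. The summed level of the tip-cell genes was 2197 to 5627 CPM in endothelial cells of mice 4, 5 and 8. Igfbp3 alone gave 159 of the 263 UMIs of this list in the 77 cells. The venous genes, a different list, summed to 1693 to 9907 CPM, with 98 of the 146 Selp UMIs in 1 cell of mouse 8. Of 11 tip-cell genes only Igfbp3 passed the filter against fibroblasts. Igfbp3, an IGF-binding protein, stood at 3137, 1993 and 1358 CPM against 95, 165 and 234 CPM (log2 3.45 ± 0.43, adjusted p = 1.8e-05) and had a UMI in 40 of the 77 cells. In the comparison with all other cells, 5 of 7 tip-cell genes were higher, among them the peptide ligand Apln (log2 5.73 ± 0.72) and the Notch ligand Dll4 (log2 5.60 ± 0.75). Apln gave 10, 5 and 2 UMIs and Dll4 1, 3 and 7 in mice 4, 5 and 8. The deepest cell, in mouse 8, held 2 of these Dll4 UMIs, and the counts are too few to rank the mice. Esm1, a proteoglycan of tip cells, gave 16, 6 and 0 UMIs.

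Efnb2, the arterial ephrin, was higher than in fibroblasts, at 249, 129 and 240 CPM against 7, 15 and 47 CPM (log2 2.97 ± 0.70, adjusted p = 0.00463), and was 1 of 2 arterial genes tested of 11. Of 5 arterial genes tested against all other cells 3 were higher. With no filter Efnb2 was not called (log2 2.42). Gja4, the arterial connexin 37, gave 5, 1 and 7 UMIs against 0, 1 and 1 in fibroblasts and was higher than in all other cells (log2 8.27 ± 0.81, adjusted p = 2.65e-19), a value that could not be had with any mouse left out. In the 4 other mice it gave 14 UMIs, all of them in 1 cell, out of 27 in all endothelial cells. Of 7 lymphatic genes Prox1, the defining factor, gave 1 UMI and Pdpn none. Pdpn, which fibroblasts carry, was at least 7.55-fold lower than in fibroblasts, a call lost without mouse 8 (log2 -7.88). The lymphatic chemokine Ccl21a gave 21 UMIs in 2 cells, 13 of them in 1 cell. With 13, 0 and 8 UMIs in mice 4, 5 and 8 it was called higher than in all other cells (log2 4.73 ± 0.77, adjusted p = 5.72e-08), and was too low to test without mouse 4. It was 1 of 2 lymphatic genes tested there, the other being Pdpn, which was lower.

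Notch genes gave 91 UMIs in the 77 cells, of which Hes1 gave 43, Dll4 15 and Notch4 13. Hes1, a Notch target, gave 647, 514 and 559 CPM against 405, 315 and 341 CPM, higher in each of the 3 mice, but did not pass (log2 0.42 ± 0.37, adjusted p = 0.518). No other gene of the 10 Notch genes was tested against fibroblasts. Relative to all other cells, 2 of 5 were higher, Dll4 and Notch4, the endothelial Notch receptor (log2 5.16 ± 0.78, adjusted p = 2.8e-09). Without mouse 4 Notch4 was not called (log2 3.48). Of 12 genes of coagulation and vessel tone, 3 were tested and Ednrb, an endothelin receptor, was higher, at 797, 643 and 1079 CPM against 0, 67 and 3 CPM (log2 5.84 ± 0.75, adjusted p = 2.57e-05), a call lost without mouse 8 (log2 5.02). Von Willebrand factor (Vwf) gave 2, 3 and 1 UMIs in the 3 mice and 13 in all 77 cells, and was higher than in all other cells (log2 3.48 ± 0.92, adjusted p = 0.00293), but not without mouse 5 (log2 2.63) or with no filter (log2 3.08).

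Few ligands of vessel growth could be tested. Cxcl12, a chemokine of stroma and vessels, stood at 149, 386 and 559 CPM against 227, 360 and 507 CPM in fibroblasts, with overlapping groups (log2 -0.33 ± 0.42, adjusted p = 0.666) and no other of the 11 ligands was tested there. Against all other cells Apln, Cxcl12 (log2 1.67 ± 0.55) and Pdgfb, the ligand that recruits pericytes (log2 2.85 ± 0.83), were higher, 3 of 7 tested. The call of Cxcl12 was lost without mouse 4 (log2 1.62), mouse 5 (log2 1.08) or mouse 8 (log2 2.32), with DESeq2 (log2 1.93) and without the replicate block (log2 1.47), among other settings. That of Pdgfb was lost without mouse 4 (log2 2.27) or mouse 8 (log2 2.67) and with no filter (log2 2.46). Vegfa gave 1 UMI in the 77 endothelial cells, against 22, 30 and 182 CPM in the fibroblasts of mice 4, 5 and 8. Its level in endothelial cells relative to fibroblasts was 0.191, with a counting interval of 0.00478 to 1.09, which includes equality.

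**Figure D5:**
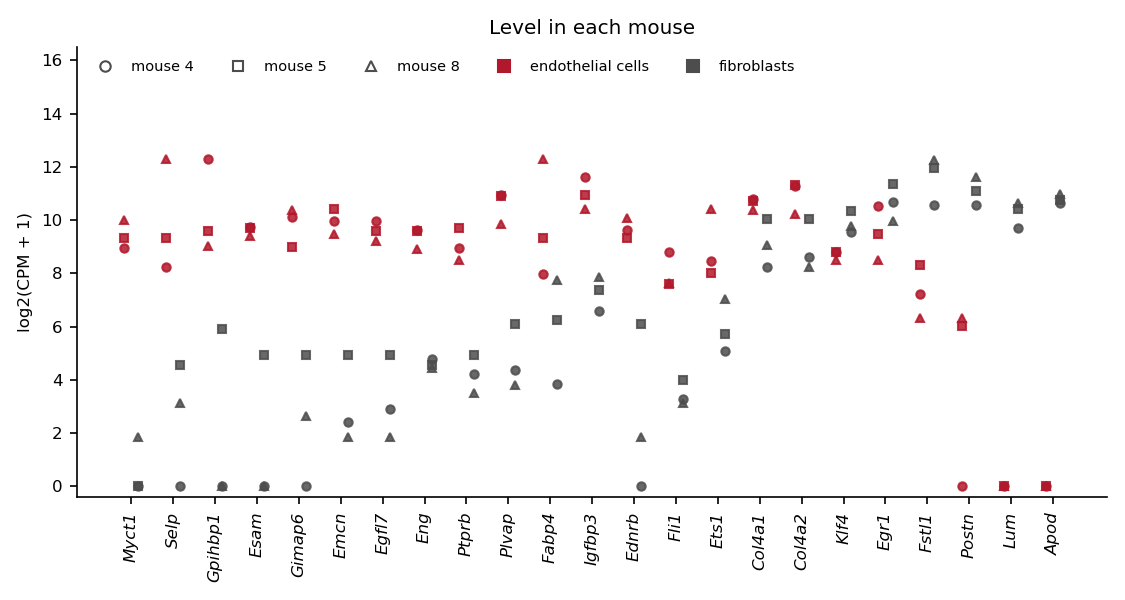
Level of 23 genes as log2(CPM + 1) in the endothelial cells (red) and fibroblasts (grey) of mice 4 (circles), 5 (squares) and 8 (triangles). From Myct1 to Ets1 each endothelial value lies above all fibroblast values of the gene, which the filter on low counts fixes for those rare in fibroblasts. Lum and Apod are at 0 in endothelial cells of all 3 mice.

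Of 10 basement membrane genes tested against fibroblasts, 3 were called higher and none lower. Both type IV collagen genes were called higher than in fibroblasts, with calls that several settings ended. Col4a2 stood at 2490, 2571 and 1198 CPM against 394, 1049 and 304 CPM (log2 1.70 ± 0.31, adjusted p = 0.000651) and Col4a1 at 1793, 1671 and 1318 CPM against 299, 1056 and 530 CPM (log2 1.24 ± 0.35, adjusted p = 0.0159). These 2 genes lie head to head and share exonic overlap on opposite strands. Col18a1, the source of endostatin, gave 448, 386 and 280 CPM against 42, 75 and 47 CPM (log2 2.53 ± 0.51). Without mouse 8 none of the 3 was called, at log2 1.76, 1.41 and 2.72, and without mouse 4 Col4a1 was not (log2 0.63). The call of Col4a1 was also lost with DESeq2 (adjusted p = 0.141), with no filter (log2 0.64), with at least 500 genes per cell (log2 0.52) and with fibroblasts over the epithelial limit left out (log2 0.63). Without the replicate block neither Col4a1 (adjusted p = 0.156) nor Col4a2 (adjusted p = 0.0556) was called. The other 7 of 10 tested genes were not called, among them Sparc, a matricellular protein, at 13544, 14014 and 4914 CPM against 8282, 15257 and 20729 CPM (log2 -0.74 ± 0.42, adjusted p = 0.269). Over all other cells 8 of 14 were higher and none lower.

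Of 11 antigen-presentation and Ly6-region genes, 10 were tested against fibroblasts, 3 were higher and 1 lower, and against all other cells 2 of 10 were higher and 4 lower. Ctla2a, a protease inhibitor homologue, gave 5079, 1479 and 1638 CPM against 79, 75 and 1370 CPM (log2 3.18 ± 0.83, adjusted p = 0.00972). Ly6c1 gave 1394, 2057 and 1718 CPM against 649, 727 and 925 CPM (log2 0.87 ± 0.28, adjusted p = 0.0338), while its neighbour Ly6a gave 1245, 1479 and 759 CPM against 3758, 2232 and 1703 CPM and was lower (log2 -1.41 ± 0.29, adjusted p = 0.00187). These genes have near-identical relatives, and how shared reads were assigned is not given in the sources used here. Without mouse 8 the calls of Ly6c1 (log2 1.07) and Ly6a (log2 -1.34) were lost, without mouse 4 those of Ctla2a (log2 1.32) and Ly6c1 (log2 0.80), and without mouse 5 that of Ly6c1 (log2 0.48). Without the replicate block neither Ctla2a (log2 2.12) nor Ly6c1 (log2 0.88) was called, and with DESeq2 Ly6c1 was not (log2 0.87). With fibroblasts over the epithelial limit left out neither was called (log2 2.44 and 0.79). The call of Ly6c1 was also lost with at least 3 selecting genes (log2 0.76), 5 cells per sum (log2 0.82) or 500 genes per cell (log2 0.79), and with no filter (log2 0.27). H2-Ab1, a class II MHC chain, gave 1096, 129 and 519 CPM against 229, 22 and 276 CPM, with overlapping groups. It was called higher (log2 1.41 ± 0.46, adjusted p = 0.0338), but not without mouse 4 (log2 0.71), mouse 5 (log2 1.11) or mouse 8 (log2 2.07), with DESeq2 (log2 1.46) or without the replicate block (log2 1.41), among other settings, and without the endothelial cells that held an immune UMI it stood at log2 -0.45 (adjusted p = 0.714). H2-Ab1 was lower than in all other cells (log2 -2.94), together with Cd74 and H2-Aa. The class I genes B2m, H2-K1 and H2-D1 were not called against fibroblasts.

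Of 18 glycolysis genes 5 were tested against fibroblasts and none was called by edgeR, with a median log2 fold change of -0.55. In the comparison with all other cells 2 of 14 were lower, Ldha (log2 -1.73 ± 0.42, adjusted p = 0.000908) and Hk2. The call of Ldha was lost without mouse 4 (log2 -1.57), with DESeq2 (log2 -1.62) and with at least 500 genes per cell (log2 -1.81). Pkm, the pyruvate kinase, stood at 647, 514 and 639 CPM against 686, 352 and 218 CPM (log2 0.39 ± 0.41, adjusted p = 0.583). When fibroblasts over the epithelial limit were left out, Pkm was higher (log2 1.06, adjusted p = 0.0391). Aldoa, the aldolase, measured 498, 386 and 240 CPM against 537, 375 and 218 CPM (log2 -0.27 ± 0.40). Both genes overlapped between the groups.

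Hk2, the hexokinase floxed in these mice and intact in these controls, gave 1 UMI in all 77 endothelial cells, in mouse 8. In fibroblasts it stood at 110, 217 and 447 CPM in mice 4, 5 and 8. The ratio of the pooled levels was 0.0639, with a counting interval of 0.00161 to 0.359. A UMI of Hk2 was found in 1.30% of endothelial cells (exact 95% interval 0.0329 to 7.02), in 19.5% of fibroblasts, in 4.38% of immune cells and in 5.39% of epithelial cells. After thinning these became 1.35, 7.78, 2.08 and 0.980%, so that the endothelial share, which is 1 cell, lay above that of epithelial cells. Hk1, the constitutive hexokinase, gave 5 UMIs in 4 endothelial cells (5.19%), and 5.21% of fibroblasts held one. Hk2 was lower than in all other cells (log2 -3.48 ± 1.19, adjusted p = 0.0364), and Hk1 was not called (log2 0.15, adjusted p = 0.962). The call of Hk2 was lost without mouse 4 (log2 -3.32), mouse 5 (log2 -3.32) or mouse 8 (log2 -9.32), with DESeq2 (log2 -2.87), with RLE normalization (log2 -3.38) and without the replicate block (log2 -3.30), among other settings. In 77 shallow cells these 2 counts allow no comparison of the 2 enzymes within endothelium.

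The transgene and the tumor's secretory genes were present at low levels. PYMT gave 4 UMIs in 3 endothelial cells (3.90%), against 7.49% of fibroblasts, 4.64% of immune cells and 51.5% of epithelial cells. It was lower than in fibroblasts (log2 -3.26 ± 0.79, adjusted p = 0.00541). The milk gene Csn3, kappa-casein, had a UMI in 26.0% of endothelial cells, 30.5% of immune cells and 82.5% of epithelial cells. All 7 tumor-epithelial genes tested of 14 were lower than in fibroblasts, a class in which the rule set no epithelial limit. With fibroblasts over that limit left out, Wfdc18, 1 of these 7 genes, was no longer called lower (log2 -0.11). The Wfdc18 call was also lost without the replicate block (log2 -1.80). Without mouse 8 the calls of Csn3 (log2 -2.17), Wfdc18 (log2 -1.57), Spp1 (log2 -3.11) and Trf (log2 -3.76) were lost and PYMT was too low to test. Trf also lost its call with DESeq2 (log2 -2.71) and without mouse 5 (log2 -2.20).

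Immediate early genes, induced within minutes of stress or growth signals, were called in few cases. Of 12 genes 11 were tested, 3 were lower and none higher, with a median log2 fold change of -0.31. In the comparison with all other cells 2 of 12 were lower. Egr1 stood at 1494, 707 and 360 CPM against 1633, 2636 and 988 CPM (log2 -1.34 ± 0.35, adjusted p = 0.00972) and Fosb at 1444, 836 and 360 CPM against 1798, 1947 and 985 CPM (log2 -1.21 ± 0.32, adjusted p = 0.00988). Fos, at 5328, 3021 and 599 CPM against 5193, 4786 and 1466 CPM, was higher in mouse 4 and lower in the others (log2 -0.85 ± 0.29, adjusted p = 0.0499). Without mouse 8 none of the 3 was called, at log2 -1.11, -0.93 and -0.52, and without mouse 5 neither Egr1 (log2 -1.19) nor Fos (log2 -1.04) was. The call of Fos was also lost without the deepest endothelial cell (log2 -0.83), with RLE normalization (log2 -0.85), with at least 3 selecting UMIs (log2 -0.82), and with fibroblasts left out that held a selecting UMI (log2 -0.83) or were over the epithelial limit (log2 -0.54). With DESeq2 none of the 3 was called (adjusted p = 0.082 for Egr1, 0.124 for Fosb and 0.308 for Fos), nor without the replicate block (0.152, 0.184 and 0.656). The 3 genes had the same order over the mice in endothelial cells, highest in mouse 4 and lowest in mouse 8, and the summed level of the 12 genes ran from 9308 to 22109 CPM.

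The genes that fell most against fibroblasts were extracellular matrix and secreted proteins. Apod, a lipid-binding lipocalin, had no UMI in endothelial cells and 1600, 1715 and 2022 CPM in fibroblasts, at least 36.1-fold lower. Lum, the proteoglycan lumican, was at 0 against 843, 1356 and 1583 CPM (at least 24.4-fold lower). Cilp, Mmp3, Cxcl14, Serpinf1, Col8a1, Ccdc80, Col14a1 and Ptx3 were also at 0 in endothelial cells of the 3 mice and at least 13.6-fold to 25.4-fold lower. Without mouse 8 the calls of Mmp3 (log2 -9.67), Col14a1 (log2 -9.22) and Ptx3 (log2 -8.25) were lost, and that of Ptx3 also with DESeq2 (log2 -5.91). In the 4 mice outside the fit the endothelial cells again held no UMI of these 10 genes. Of 18 fibroblast matrix genes 17 were tested and 17 were lower, as were 14 of 16 against all other cells, which in part follows from the collagen limits that define both classes. The filter sets a further part, since genes that endothelial cells hardly express were tested only where the sums compared with them were high. These counts are a description.

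Some matrix transcripts were detected in endothelial cells. Bgn, the proteoglycan biglycan, gave 149, 257 and 280 CPM against 1435, 2247 and 3210 CPM (log2 -3.62 ± 0.35). Fstl1, a follistatin-like protein, gave 149, 321 and 80.0 CPM against 1527, 3985 and 4905 CPM (log2 -4.59 ± 0.44). Postn, periostin, gave 0, 1 and 2 UMIs against 1516, 2157 and 3171 CPM (log2 -5.86 ± 0.49). Every endothelial value of these genes lay below every fibroblast value, which the filter fixes for Postn with its few endothelial UMIs.

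The 13 mural-cell genes gave 59 UMIs in all endothelial cells, most of them of 1 gene. Rgs5, a pericyte regulator of G-protein signals that some endothelial cells also express, gave 199, 1350 and 719 CPM against 31, 614 and 18 CPM (log2 2.46 ± 0.63, adjusted p = 0.00837). It was found in 10 of 77 cells of 3 mice, with 17 of its 43 UMIs in 1 cell, and it was not called without mouse 8 (log2 1.30), without the replicate block (log2 1.60) or without fibroblasts over the epithelial limit (log2 1.87). The pericyte receptor Pdgfrb gave 2 UMIs, Acta2 4, Higd1b 3, Cspg4, Des, Cox4i2 and Kcnj8 1 each, and Notch3 and Abcc9 none. On these few UMIs the pooled levels of Higd1b, Des and Cox4i2 lay above those of fibroblasts. Those of Acta2, Cspg4, Kcnj8 and Abcc9 lay below. The 13 mural genes together ran from 299 to 1671 CPM in endothelial cells and from 150 to 1693 CPM in fibroblasts, and whether pericyte RNA took part in the Rgs5 result was not tested. Among blood genes, the globin Hbb-bs gave 199, 0 and 8389 CPM, 132 of its 215 UMIs stood in 1 cell, and it did not differ by the test (log2 0.74 ± 0.39, adjusted p = 0.229).

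Further genes rose that no list held. Gimap6 and Gimap5, GTPases best known from lymphocytes, stood at 1096, 514 and 1318 CPM and at 398, 193 and 360 CPM in endothelial cells. In fibroblasts they stood at 0, 30 and 5 CPM and at 2, 7 and 0 CPM (log2 6.83 ± 0.71 and 6.65 ± 0.78). Both were also higher than in all other cells, a pooled sum in which lymphocytes were not compared on their own (log2 4.08 and 3.59, adjusted p = 6.21e-18 and 2.85e-06). Without mouse 8 Gimap5 was not called there (log2 2.81). In the 77 cells the lymphocyte markers Cd3d, Nkg7 and Ptprc gave 1 UMI each and Cd3e, Cd3g and Cd79a none, and the part of lymphocyte RNA in the result was not tested. Exons of Gimap5 overlap those of Gm28053 on the same strand. Rasip1, a regulator of vessel lumen formation, gave 398, 193 and 719 CPM against 2, 15 and 3 CPM (log2 6.24 ± 0.74). The uncharacterized C130074G19Rik gave 448, 257 and 200 CPM against 2, 0 and 0 CPM (log2 7.29 ± 0.79, adjusted p = 5.42e-06). Without mouse 8 the call of Gimap6 was lost (log2 6.46) and the other 3 were too low to test. For each of these 4 genes all endothelial sums lay above all fibroblast sums, which the filter on low counts fixes for genes this low in fibroblasts.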

How the data were processed

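Single-cell mRNA of 7 control tumors was measured by Drop-seq, 1 library per mouse. The authors deposited per tumor a matrix of raw UMI counts with genes in rows and barcodes in columns. Per the methods, reads were aligned to mm10 with the PyMT sequence. The submitters' processing notes name STAR and FastQC without versions and the human builds GRCh37.p13 and hg19. The counting program, its strand setting and the annotation are not given in the sources used here. Gene identifiers and coordinates are from GENCODE vM21 (GRCm38), matched by symbol.

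Of 37000 barcodes, 15047 with 200 to 6000 genes were kept, 1133 to 4780 per mouse with 962677 to 4471473 UMIs. Mitochondrial genes, present in 2 matrices, were dropped. Cells were assigned in order as endothelial, fibroblast, immune (at least 3 UMIs of at least 2 of Ptprc, Tyrobp, Fcer1g, Cd3d, Cd3e, Cd3g, Cd79a, Lyz2 and C1qa) or epithelial (at least 3 UMIs of at least 2 of Epcam, Krt8 and Krt18), and 5305 stayed unclassed. Apart from the upper limit on genes, doublets were not removed. Kept barcodes shared between pairs of libraries numbered 5.

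UMIs were summed per mouse and class where both sums held at least 10 cells, and tested with edgeR 4.0.16 in R 4.3.3 (TMM, filterByExpr, quasi-likelihood test, mouse as block), with genes of the rules left out before adjustment at 0.05. The 2 sums of a mouse come from the same animal, which pairs them. The test was also run on counts simulated with a fixed dispersion, which do not model 1 deep cell holding much of a sum. Against fibroblasts it called 43 of 47 tested genes at a true log2 change of 2 and 11 of 21 at -2. At 4 and -4 it called 50 of 50 and 25 of 27, and 3 of 1237 unchanged genes. Against all other cells these were 18 of 50, 28 of 50, 49 of 49, 37 of 50 and 14 of 6156. CPM are per 1000000 UMIs of the class. Intervals of ratios and shares cover counting error only. Python 3.11.15, numpy 2.4.6, scipy 1.17.1 and pandas 2.3.3 were used.

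The named genes are the 6 selecting genes, the 15 and 10 with the largest rise and fall against fibroblasts that moved alike in all mice, up to 4 called genes per list and direction with the most endothelial UMIs (2 where none was called), and Hk1, Hk2 and PYMT. Other list members, the paired genes and 2 alternatives (leaving out fibroblasts over the epithelial limit, or the deepest cell) were chosen after values were seen. The cells, lists and tests were chosen with earlier results of these data known. Alternatives were DESeq2 1.42.0, RLE normalization, no filter, no block, other cell and gate limits, the title series and each mouse left out.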

Additional observations from a re-analysis of the deposited data

Results flagged for a closer look

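Over the 7 tumors, 3 quantities had 1 mouse far from the other 6 by Dixon's criterion, and chance alone puts about 1 in 20 such groups there. Mouse 4 had 4780 kept cells. Fibroblasts were 36.1% of the cells of mouse 8. Mouse 5 held 25.4 endothelial cells per 100 fibroblasts. The share of endothelial cells itself had no such mouse. Outside the cells used, 29 of the 21950 barcodes with fewer than 200 genes also met the endothelial conditions, and they entered no comparison. The causes were not tested.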

How the results depend on the processing

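Against fibroblasts, 342 genes were called, and 247 to 398 under 18 of the 20 alternatives. The WT series alone is the same fit as that without mouse 4, and at least 20 cells per sum the same as that without mouse 5. Without the filter on low counts 584 of 19146 genes were called (120 higher, 464 lower), of which 277 were among the 342. Leaving out 1 mouse gave 74 to 398 genes, the fewest without mouse 8, where 22 of the 57 named and called genes with a value were still called. Without the replicate block 270 were called. Of 67 named calls DESeq2 kept 53 and the fit without the block 55. Against all other cells, where 677 were called, DESeq2 called 371 (221 higher and 150 lower, so its split went the other way), the WT series alone 287, at least 20 cells per sum 392, at least 500 genes per cell 229 and the fit with no replicate block 348 (180 higher, 168 lower). Leaving out 1 mouse gave 287 to 543. RLE normalization moved the median of all genes there from -0.68 to -0.57. The cause of these changes was not tested.

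Of 1364 values of 73 genes against fibroblasts under the alternatives, 1222 kept direction and side of the threshold, 135 lost the call, 1 gained it and 6 changed sign. These 6 were Hes1 with at least 500 genes per cell (log2 -0.30) and with no filter (log2 -0.18), H2-Ab1 without endothelial cells that held immune UMIs (log2 -0.45), Pkm with no filter (log2 -0.21) and without mouse 8 (log2 -0.045, against 0.73 without mouse 4), and Aldoa without fibroblasts over the epithelial limit (log2 0.10). Of 345 values of 23 genes against all other cells, recomputed after the data were seen, 298 kept direction and side of the threshold, 37 from 7 genes lost the call, 4 of Klf4 and Mef2c gained it and 6 changed sign. These 6 were of Hk1, never called, at log2 -0.11 with at least 3 selecting genes, -0.040 with at least 5 cells per sum, -0.19 without Ramp2 and Aqp1, -0.23 with no filter, -0.43 without the deepest cell and -1.40 without mouse 8 (-1.40 to 0.64 with 1 mouse left out). The mean share of endothelial cells, 0.577%, was 0.433 to 0.761% under other gate and cell limits and 0.379 to 0.659% with 1 mouse left out. The CB series could not be fitted alone, since only 1 of its mice had at least 10 endothelial cells. With 3 mice and a median of 631 UMIs per cell, absence of a call or of a UMI does not show equality or absence.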
